A study of Mus musculus with 49 samples.

Results

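Of the 49 samples in the series, 37 are listed under U74Av2 arrays and share a table of signals. The 7 arrays described here are the 3 titled GFPpos and the 4 titled Cre-Mlo, chosen by their titles. GFPpos cells came from bone marrow of mice doubly transgenic for an anti-HEL immunoglobulin and a Rag-2-GFP reporter; the marrow was expanded in interleukin-7, then cultured for 1 day without it in herbimycin A, and IgM+ GFP+ cells were sorted. Cre-Mlo cells had the genotype B1-8h/3-83(kappa)/Mx-Cre, whose floxed heavy chain gene is deleted when interferon induces the recombinase; the marrow was expanded in the same cytokine, cultured for 2 days without it in interferon-(alpha)(beta), and sorted for low surface IgM. Each state has its own control. GFPneg cells (3 arrays) came from the first mouse line after 1 day without inhibitor and were sorted as IgM+ and GFP negative, and Ctrl-Mhi cells (4 arrays) came from B1-8h/3-83(kappa) mice lacking Mx-Cre after the same 2 days in interferon and were sorted for high IgM. A further pair of groups, from Bcl-2 transgenic marrow, were immature B cells sorted first and then cultured with herbimycin A (FxE HA, 6 arrays) or without it (FxE Ctrl, 4 arrays). The labels put these cultures at 1 to 2 days without saying which array had which; by the study's legend, FxE HA arrays 1 to 4 and FxE Ctrl arrays 1 and 2 are 24 hours and the rest 48 hours. The labels give no ages.

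GFPpos and Cre-Mlo cells therefore differ in mouse line, antigen receptor, inhibitor, interferon, days of culture and sort gate, and in a direct comparison these cannot be told apart. Interferon is part of the Cre-Mlo model, since the Mx promoter needs it, and its own control received it too. Herbimycin A is not selective for the receptor pathway. The GFPpos gate reads a reporter of Rag2 and the Cre-Mlo gate reads IgM, so the levels of these genes are not independent of the sort.

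An immature B cell carries a finished IgM receptor on its surface, and a tonic signal from that receptor is thought to keep the recombinase genes Rag1 and Rag2 low, which fixes the receptor the cell has made. Herbimycin A is an ansamycin that blocks tyrosine kinases such as those next to the receptor and also binds the chaperone Hsp90, whose inhibition releases heat shock factor. Type I interferon acts through its own receptor and the transcription factor ISGF3 on genes with an interferon-stimulated response element, many of them antiviral. The question here is how alike the states reached by the kinase block and by removal of the receptor itself were.

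Signals are in arbitrary units, after the authors' scaling of every array to a common target, and each comes from a probe set, the oligonucleotides that together read a transcript. Median signals were 441 to 492 on GFPpos arrays and 476 to 509.3 on Cre-Mlo arrays, and 3.9 to 5.4% of GFPpos values and 3.1 to 4.8% of Cre-Mlo values lay under 20. Array pairs correlated at 0.939 to 0.956 within GFPpos and 0.947 to 0.956 within Cre-Mlo, against 0.915 to 0.938 between them (Pearson, log2 signals over 9977 probe sets). Single arrays stood apart in particular genes. Among the 3 GFPpos arrays, array 1 was the highest for 14 of 18 genes of pro-B and pre-B cells and the lowest for 17 of 20 mature B cell genes, 13 of 14 MHC class II genes and 27 of 31 proliferation genes. Over all 7417 genes it was the highest in 38.7% and the lowest in 33.4%. The counts of these lists and several of the named genes are given without it too. GFPpos array 2 was the highest for 27 of the 31 proliferation genes and GFPpos array 3 the lowest for 15 of 17 myeloid markers, while among the 4 Cre-Mlo arrays array 4 was the highest for 24 of the 31 proliferation genes and array 1 the lowest for 20 of 30 interferon-stimulated genes. The sum of the 8 measured B cell identity genes was 150610 to 161294 on GFPpos arrays and 150155 to 164703 on Cre-Mlo arrays.

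Signals under 20 were raised to 20, and log2 values of the 14 arrays of the 2 states and their controls were fitted together with limma. A probe set was called at a two-sided, Benjamini-Hochberg adjusted p under 0.05 over all 9977. Differences are log2 of GFPpos minus Cre-Mlo with a 95% interval that is not adjusted, so it can exclude 0 where the adjusted p does not pass. By this test 390 probe sets (3.91%) were higher in GFPpos and 317 (3.18%) lower, and 377 of the 707 differed by at least 1 in log2. With 1 probe set per gene, 320 of 7417 genes (4.31%) were higher and 226 (3.05%) lower, with a median difference over all genes of -0.02. The p-values measure the spread between these arrays. The methods give 4 independent sorts each for Cre-Mlo and Ctrl-Mhi and 2 or 3 each for GFPpos and GFPneg, where some arrays may therefore share a sort. In bulk RNA, fewer cells of a kind and less RNA per cell cannot be told apart.

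The recombination genes Rag1, Rag2, Dntt and Xrcc6 were above the own control in both states. None of the 8 measured members was called between GFPpos and Cre-Mlo, with a median difference of -0.10, whereas 4 of them were higher than in the own control in each state, and 2 were lower in GFPpos than in GFPneg. Over all genes, 5.16% were higher and 5.66% lower in GFPpos than in GFPneg, and 4.71% were higher in Cre-Mlo than in Ctrl-Mhi. Rag1, which with Rag2 forms the enzyme that cuts receptor genes, gave signals of 43338, 29792 and 28754 on GFPpos arrays, against 38024, 37382, 31900 and 44561 on Cre-Mlo arrays. These overlap, and the difference was -0.18 (95% interval -0.66 to 0.31, adjusted p = 0.73). The controls were further apart than the states were: Rag1 signals were 212 to 253 on GFPneg arrays and 1648 to 3174 on Ctrl-Mhi arrays.

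Rag1 thus stood 7.14 above GFPneg in GFPpos cells (adjusted p = 1.6e-08) and 4.06 above Ctrl-Mhi in Cre-Mlo cells (adjusted p = 4.2e-07), and the gap between these effects was called (3.09, adjusted p = 0.00055). Rag2 followed the same order. Its signals were 4841, 6670 and 7040 on GFPpos arrays, against 3668, 3546, 3400 and 2770 on Cre-Mlo arrays. The 2 groups did not overlap, but the difference of 0.88 (95% interval 0.15 to 1.60) did not pass (adjusted p = 0.15), although it did with signals raised to 100 (adjusted p = 0.01). Its effects were 6.28 in GFPpos and 2.86 in Cre-Mlo, a difference of 3.42 (adjusted p = 0.0067). GFPneg cells had been sorted for a dark Rag-2 reporter and Ctrl-Mhi cells had not; the part of the gate in these effects was not tested.

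Dntt encodes terminal deoxynucleotidyl transferase, which adds bases at receptor gene junctions. Its signals were 29178, 6578 and 5219 on GFPpos arrays, against 2656, 2725, 3215 and 2192 on Cre-Mlo arrays, so the groups did not overlap and array 1 of GFPpos was far above the rest. The difference of 1.90 (95% interval 0.68 to 3.13) missed the threshold (adjusted p = 0.066), and passed when GFPpos array 3 was left out (2.37, adjusted p = 0.044) or signals were raised to 100 (adjusted p = 0.035). Without GFPpos array 1 it was 1.13 (adjusted p = 0.19). Dntt was 5.72 above GFPneg in GFPpos and 4.79 above Ctrl-Mhi in Cre-Mlo, with no call on the gap between them (0.93, adjusted p = 0.70). Xrcc6, the Ku70 subunit that holds broken DNA ends, was the closest match: 18067, 10882 and 10485 on GFPpos arrays, against 11424, 14362, 12256 and 13768 on Cre-Mlo arrays, a difference of -0.02 (95% interval -0.68 to 0.64, adjusted p = 0.98). It was 2.55 above GFPneg and 2.43 above Ctrl-Mhi.

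**Figure D1:**
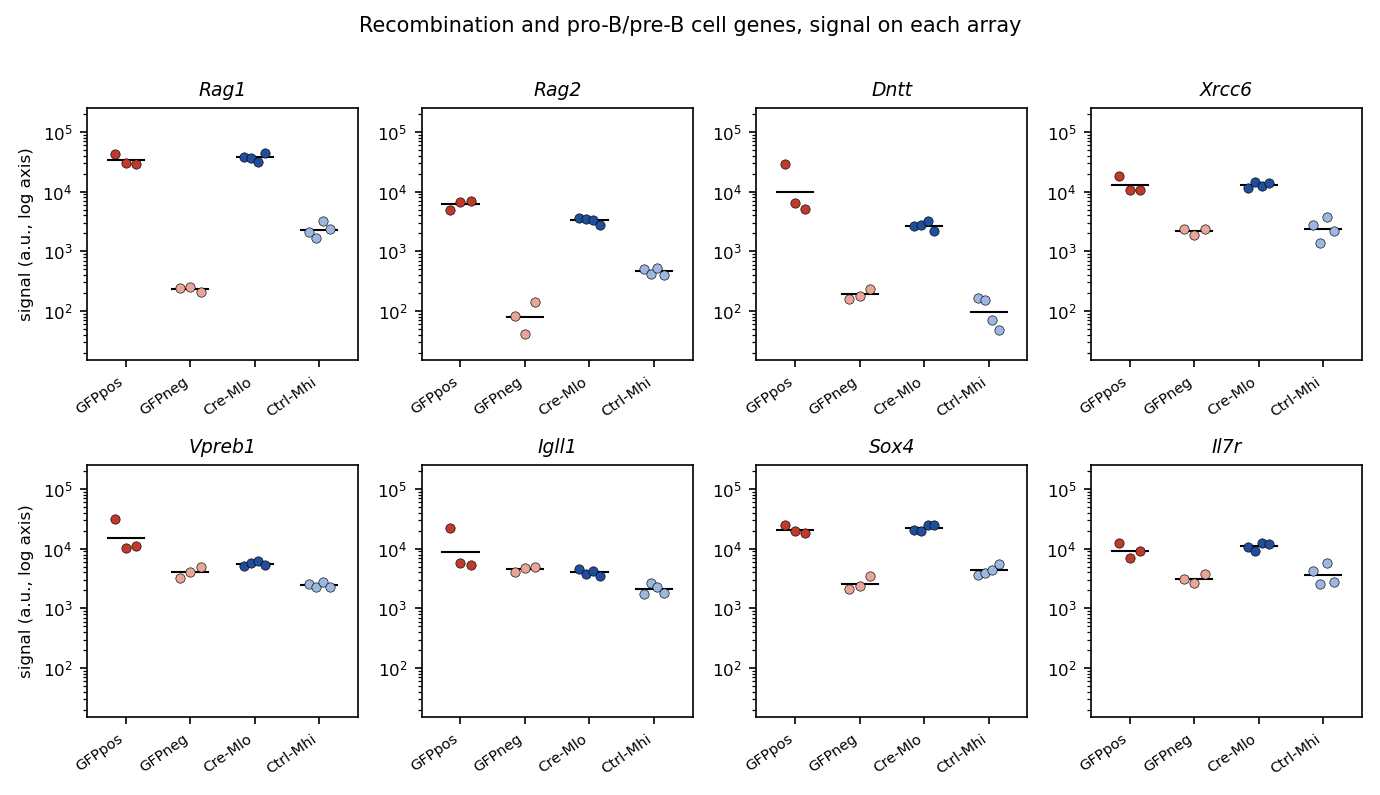
Signal of 8 recombination and early B cell genes on each array (log axis, arbitrary units, raised to 20), with each group's geometric mean as a line. GFPpos and Cre-Mlo points lie at like heights for Rag1, Xrcc6, Sox4 and Il7r, while GFPpos array 1 is the highest of its group for Dntt, Vpreb1 and Igll1.

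Pro-B and pre-B cell genes, which mark the stages before the receptor is complete, were near level between the states in their median, 0.05. Of 18 measured, 3 were higher in GFPpos and 0 lower (4.31% and 3.05% of all genes). Vpreb1, a part of the surrogate light chain that pairs with the heavy chain in pre-B cells, was among them. Its signals were 30999, 10468 and 11070 on GFPpos arrays, against 5056, 5717, 6204 and 5390 on Cre-Mlo arrays, without overlap (1.46, 95% interval 0.77 to 2.15, adjusted p = 0.016). The call was lost in a fit of the 2 groups alone (adjusted p = 0.1) and in one of all 37 arrays (adjusted p = 0.057). Its partner Igll1 gave 22018, 5664 and 5394 on GFPpos arrays and 4513, 3775, 4229 and 3554 on Cre-Mlo arrays. The groups did not overlap here either, but 1.13 (95% interval 0.26 to 2.00) did not pass (adjusted p = 0.12), and it was 0.47 without GFPpos array 1 (adjusted p = 0.22). Cd24a, the heat stable antigen of immature B cells, was higher by 0.65 (adjusted p = 0.0084; 0.062 and 0.071 in those fits).

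The third, Kit, the stem cell factor receptor, had low signals of 408, 233 and 93 on GFPpos arrays, against 66, 44, 39 and 12 on Cre-Mlo arrays. Its call (2.41, adjusted p = 0.027) was lost without GFPpos array 1 or 2 or Cre-Mlo array 2, 3 or 4 (adjusted p 0.054 to 0.11), and the difference was 1.08 with signals raised to 100. Without GFPpos array 1, Vpreb1 (0.95, adjusted p = 0.012) and Cd24a (0.54, adjusted p = 0.033) stayed called and the median of the list was -0.04. Sox4, a factor of early lymphoid cells, differed by -0.12 (95% interval -0.58 to 0.34, adjusted p = 0.82) and was 3.00 above GFPneg in GFPpos and 2.37 above Ctrl-Mhi in Cre-Mlo. Il7r, the interleukin-7 receptor (-0.25, adjusted p = 0.70), Lef1 (0.62, adjusted p = 0.28) and Myb (-0.06, adjusted p = 0.86) were likewise not called.

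Of the lists examined, interferon-stimulated genes had the largest share of members called between the states. Of 30 measured (of 50 listed), 25 were lower in GFPpos (3.05% of all genes) and 0 higher, with a median of -2.66 (83.3% called). In 24 of the 30 every GFPpos array lay below every Cre-Mlo array (9.92% of all genes). The antiviral and feedback genes led: Usp18, which removes ISG15 and dampens the interferon receptor, gave 72, 29 and 36 on GFPpos arrays, against 5281, 9568, 9347 and 9550 on Cre-Mlo arrays. Mx1, a GTPase that blocks influenza virus, gave 14, 51 and 9 on GFPpos arrays, against 2487, 3706, 3366 and 3316 on Cre-Mlo arrays. In both genes every GFPpos array lay far below every Cre-Mlo array, with differences of -7.60 for Usp18 (95% interval -8.50 to -6.71, adjusted p = 5.4e-07) and -6.86 for Mx1 (95% interval -7.64 to -6.09, adjusted p = 4.9e-07). With signals raised to 100 the differences were -6.36 for Usp18 and -4.99 for Mx1, since the GFPpos signals lay near the floor.

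Ifit1 and Ifit3, whose proteins bind foreign RNA and the complexes that sense it, are shown with their promoters because they lay among the 10 largest falls and both hold the response element core more than once. The windows run from 250 bases before to 50 after the gene start (RefSeq, GRCm38.p6, plus strand). Ifit1 is at chr19:34640639-34640938 and Ifit3 at chr19:34583279-34583578. Capitals mark the core of the interferon-stimulated response element, searched on both strands as GAAA, any 2 bases and GAAA, and here found in the reverse complement, TTTC, any 2 bases and TTTC.
Ifit1: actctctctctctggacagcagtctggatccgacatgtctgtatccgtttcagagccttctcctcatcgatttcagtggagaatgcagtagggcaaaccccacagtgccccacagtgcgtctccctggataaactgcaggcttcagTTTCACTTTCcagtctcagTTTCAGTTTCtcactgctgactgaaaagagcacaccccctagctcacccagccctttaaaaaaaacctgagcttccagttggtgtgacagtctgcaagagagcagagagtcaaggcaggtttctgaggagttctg
Ifit3: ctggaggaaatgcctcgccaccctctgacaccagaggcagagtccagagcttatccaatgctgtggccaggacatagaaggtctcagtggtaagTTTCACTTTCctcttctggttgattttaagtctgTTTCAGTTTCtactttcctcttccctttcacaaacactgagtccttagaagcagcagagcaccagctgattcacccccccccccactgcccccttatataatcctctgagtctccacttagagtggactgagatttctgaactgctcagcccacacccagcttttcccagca
A gene counted as holding the core if any of its promoters did, which was so for 3.99% of 27025 mouse gene symbols (3.44% of 32851 single promoters). The core was in 14 of the 24 measured interferon-stimulated genes with a promoter in the table (58.3%). Among the 20 called ones of these it was in 10 (50%). It was in 0 of 20 measured heat shock genes. A match is a description of these letters and not a shown binding site. Ifit1 gave 86, 21 and 7 on GFPpos arrays, against 579, 1531, 1146 and 1496 on Cre-Mlo arrays (-5.08, 95% interval -6.18 to -3.98, adjusted p = 7.4e-05, and -3.47 with signals raised to 100). Ifit3 gave 36, 110 and 40 on GFPpos arrays, against 2902, 4840, 4923 and 4424 on Cre-Mlo arrays (-6.26, 95% interval -7.31 to -5.21, adjusted p = 9.5e-06).

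Other falls among the 10 largest were Iigp1, an interferon-inducible GTPase (-5.88, adjusted p = 0.00056), Irf7, the factor that amplifies interferon production (-5.05, adjusted p = 1.4e-05), Ifi27l2a (-4.77, adjusted p = 4.9e-07) and Mx2 (-4.61, adjusted p = 9.2e-06). Irf9, the DNA-binding part of ISGF3, was lower by less (-1.58, adjusted p = 0.00017), as read after its value was seen, and so was Isg15 (-3.33, adjusted p = 9.2e-06). Members not called were Gbp2, Gbp3, Ly6e, Cxcl10 and Rsad2. Socs1, a brake on cytokine receptors, gave 7890, 7841 and 7018 on GFPpos arrays, against 13535, 17243, 9720 and 15787 on Cre-Mlo arrays (-0.86, adjusted p = 0.026). That call was lost without any 1 GFPpos array or without Cre-Mlo array 1, 2 or 4 (adjusted p 0.053 to 0.088). Socs1 was above the own control in both states, by 3.15 in GFPpos and 1.65 in Cre-Mlo.

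The same list differed between the controls, of which Ctrl-Mhi had been cultured in interferon and GFPneg had not. Between them, 24 of the 30 were lower in GFPneg than in Ctrl-Mhi (2.83% of all genes), with a median of -2.24. Of these, 23 were also lower between the states, 92% of the 25 and 95.8% of the 24. The 2 differences use different arrays, but their calls share the spread fitted over all 14 arrays, so the calls are not independent. Eif2ak2 and Oas1g were called only in the direct comparison; the difference between the comparisons was not tested. Against the own control the medians were -0.17 in GFPpos and 0.01 in Cre-Mlo, and no member was called in the difference of effects. Mx1 was still lower in GFPpos than in GFPneg (-2.37, adjusted p = 0.0026) on signals near the floor, and also lower in FxE HA than in FxE Ctrl (-2.51, adjusted p = 0.0097, not called at -0.68 with signals raised to 100).

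MHC class I genes, which present peptides from inside the cell and are themselves raised by interferon, were lower in GFPpos as a group. Of 13 measured, 8 fell (3.05% of all genes) and 0 rose, with a median of -1.11. The 8 spanned the heavy chains H2-K1 and H2-D1, the light chain B2m, the peptide pump Tap1 and its bridge Tapbp. They also held the immunoproteasome subunits Psmb8 and Psmb9, besides H2-M3. Tap1 gave 2043, 2666 and 2727 on GFPpos arrays, against 14662, 16027, 14756 and 17173 on Cre-Mlo arrays. The arrays of each group were tight and far apart (-2.67, 95% interval -2.97 to -2.37, adjusted p = 4.9e-07). H2-K1 gave 13667, 25697 and 33483 on GFPpos arrays, against 103906, 113627, 113362 and 102456 on Cre-Mlo arrays (-2.25, 95% interval -2.77 to -1.73, adjusted p = 0.00013), with array 1 the lowest. H2-D1 (-2.38, adjusted p = 8e-05) and Tapbp (-1.15, adjusted p = 0.00036) went the same way, as did B2m (-1.11, adjusted p = 0.0012) and Psmb9 (-1.23, adjusted p = 0.00053), the last 2 picked after their values were seen.

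Between the controls, 4 of the 13 were lower in GFPneg than in Ctrl-Mhi (2.83% of all genes). In GFPpos minus GFPneg 6 were lower (5.66% of all genes), and in Cre-Mlo minus Ctrl-Mhi 0 were called. Of the 13, Tap1 had a called difference of effects. Tap1 differed by -1.85 from GFPneg in GFPpos (adjusted p = 2.7e-05) and differed by -0.20 from Ctrl-Mhi in Cre-Mlo (adjusted p = 0.40), and the difference of the effects, -1.65, was called (adjusted p = 0.0016, against 0.108% of genes called lower there). On the separate FxE arrays Tap1 was lower with herbimycin A too (-1.39, adjusted p = 0.036; 0.0020 with culture time as a term), but the call was lost without any single array other than FxE HA array 3 (adjusted p 0.05 to 0.12) and with median centring (adjusted p = 0.093). H2-Q5, a class I gene outside the list, had one of the largest gaps in effect (-1.73, adjusted p = 0.040), which was lost under 14 of its 21 alternatives (adjusted p up to 0.098), among them leaving out any single array other than GFPpos arrays 1 and 3.

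Heat shock and chaperone genes ran the other way. Of 23 measured (of 30 listed), 18 did not overlap upward (12.1% of all genes), and the median was 0.97. By call 14 were higher in GFPpos (4.31% of all genes) and 0 lower. They covered the Hsp110 protein Hsph1, the constitutive Hsp70 Hspa8, the Hsp40 proteins Dnaja1 and Dnajb1, Hsp90aa1 and its partners Fkbp4 and Chordc1, the mitochondrial chaperonins Hspd1 and Hspe1, and Cct3, Cct5, Hspa4, Hspa4l and Hsf2. Hsph1 gave 19955, 13804 and 14549 on GFPpos arrays, against 1789, 1979, 2088 and 2477 on Cre-Mlo arrays (2.94, 95% interval 2.49 to 3.39, adjusted p = 5.8e-06). Every GFPpos array was above every Cre-Mlo array by a wide margin, and GFPneg (1920 to 2069) and Ctrl-Mhi (1348 to 2403) arrays lay where Cre-Mlo did. Hspa8 gave 49257, 32186 and 35778 on GFPpos arrays, against 9226, 9109, 7670 and 10905 on Cre-Mlo arrays (2.07, 95% interval 1.68 to 2.45, adjusted p = 2.3e-05). Dnaja1 (1.89, adjusted p = 1.4e-05) and Chordc1 (1.37, adjusted p = 4.3e-05) completed the 4 with the smallest adjusted p.

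Of the others, picked after their values were seen, Hsp90aa1 was higher by 1.70 (adjusted p = 0.0034), Hspe1 by 1.58 (adjusted p = 0.0015), Dnajb1 by 1.32 (adjusted p = 0.00013) and Fkbp4 by 1.23 (adjusted p = 9.3e-05). The inducible Hsp70 gene Hspa1b was not called. Its signals of 1042, 3344 and 2270 on GFPpos arrays overlapped those of 763, 1142, 1233 and 1621 on Cre-Mlo arrays (0.79, 95% interval -0.26 to 1.85, adjusted p = 0.39). Hsph1 and Chordc1 are shown with their promoters, since they are among the 4 genes of the list that hold a heat shock element core. The windows are as above (RefSeq, GRCm38.p6), with Hsph1 at chr5:149636287-149636586 on the minus strand and Chordc1 at chr9:18292017-18292316 on the plus strand. Capitals mark the core, searched on both strands as GAA, TTC and GAA with any 2 bases between neighbours, or TTC, GAA and TTC spaced alike. It lies at bases 287 to 299 of the 300 in Hsph1, and in Chordc1 3 overlapping matches fill bases 247 to 269.
Hsph1: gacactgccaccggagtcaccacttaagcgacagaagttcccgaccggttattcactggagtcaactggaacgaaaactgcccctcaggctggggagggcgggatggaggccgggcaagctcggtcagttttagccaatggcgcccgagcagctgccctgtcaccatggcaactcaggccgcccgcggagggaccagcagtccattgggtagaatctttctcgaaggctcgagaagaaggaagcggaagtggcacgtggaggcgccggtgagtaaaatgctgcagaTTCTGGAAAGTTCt
Chordc1: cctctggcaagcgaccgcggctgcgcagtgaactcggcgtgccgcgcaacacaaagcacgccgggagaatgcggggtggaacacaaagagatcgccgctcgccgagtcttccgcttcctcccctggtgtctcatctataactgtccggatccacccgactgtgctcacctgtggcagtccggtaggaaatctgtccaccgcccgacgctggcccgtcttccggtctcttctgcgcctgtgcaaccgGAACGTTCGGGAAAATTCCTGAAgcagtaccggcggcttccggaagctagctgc
Counted by gene as above, this core was in 0.662% of the 27025 gene symbols (0.603% of the 32851 single promoters). It was in 4 of the 20 measured heat shock genes with a promoter in the table (20%, Chordc1, Hspd1, Hspe1 and Hsph1) and in 0 of the 24 interferon-stimulated genes.

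Heat shock genes were also higher in the other contrasts with herbimycin A on 1 side. Against GFPneg, 14 of the 23 genes were higher in GFPpos (5.16% of all genes). In Cre-Mlo minus Ctrl-Mhi 1 was higher and 2 were lower (4.71% and 4.3% of all genes). Between the controls 2 were higher in GFPneg (3.37% of all genes). The difference of effects was called for Hsph1 (2.94, adjusted p = 0.00051), Hspa8 (2.15, adjusted p = 0.0016), Dnaja1 (1.82, adjusted p = 0.0016), Hspe1 (2.12, adjusted p = 0.019) and Chordc1 (1.15, adjusted p = 0.020), against 0.189% of genes called higher there. The call on Hspe1 was lost without Cre-Mlo array 4 (adjusted p = 0.052) or GFPneg array 2 (0.058), and that on Chordc1 without Cre-Mlo array 1 (0.056), Cre-Mlo array 2 (0.057) or GFPneg array 3 (0.054). On FxE HA arrays 12 of the 23 were higher than on FxE Ctrl arrays (0.903% of all genes, median 1.22), and 9 of them were among the 14, which is 64.3% of the 14 and 75% of the 12. Hsph1 ran from 15746 to 30026 on FxE HA arrays and from 2534 to 3739 on FxE Ctrl arrays, a difference of 2.94 (adjusted p = 0.00011). Hspa1b, not called between the states, was called higher on FxE HA arrays (3.63 to 4.87 over 18 alternatives). That call was lost without any 1 FxE Ctrl array or without FxE HA array 1, 2 or 4 (adjusted p 0.052 to 0.078).

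**Figure D2:**
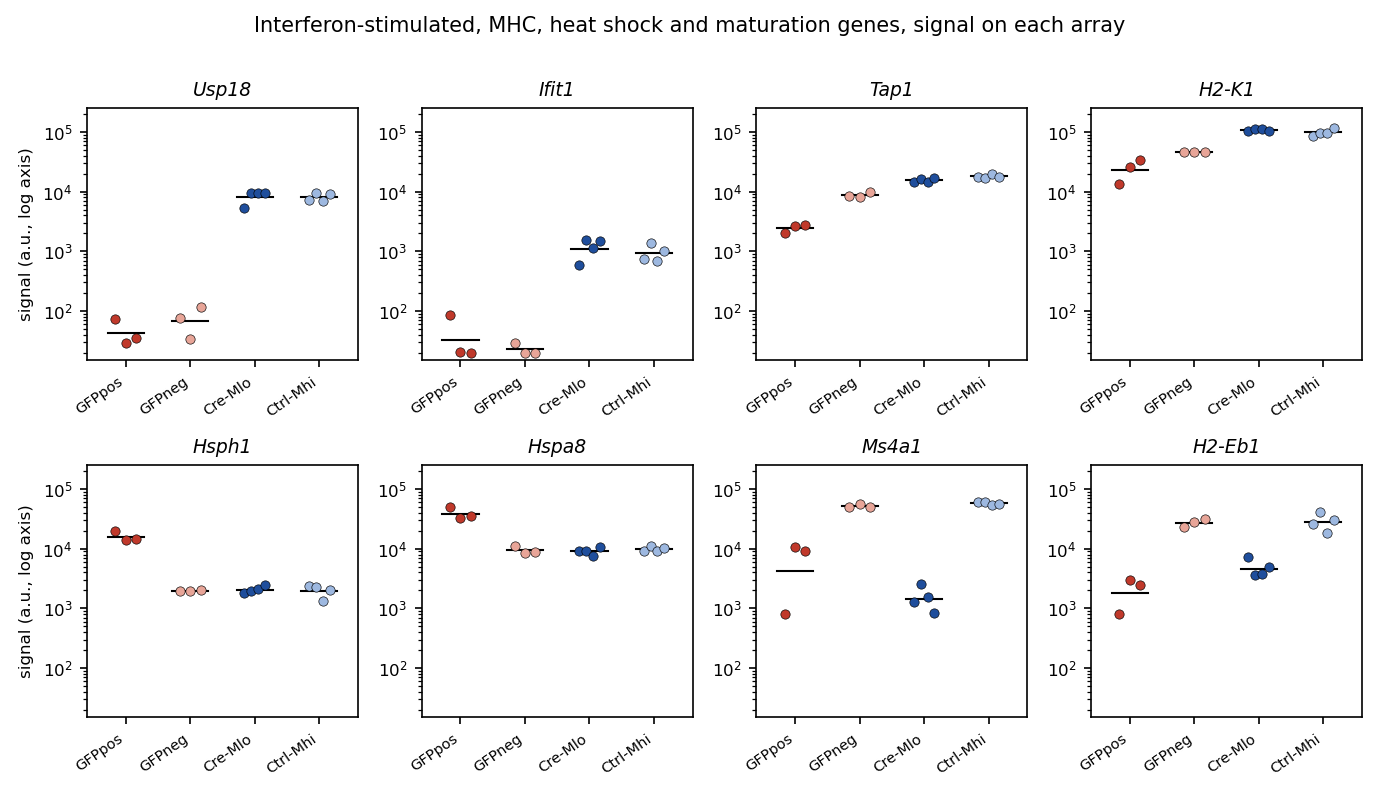
Signal of 8 genes on each array (log axis, arbitrary units, raised to 20), with each group's geometric mean as a line. Usp18 and Ifit1 are high in both groups cultured in interferon, Hsph1 and Hspa8 are high only in GFPpos among these 4 groups, and array 1 of GFPpos is the lowest of its group for Ms4a1 and H2-Eb1.

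**Figure D3:**
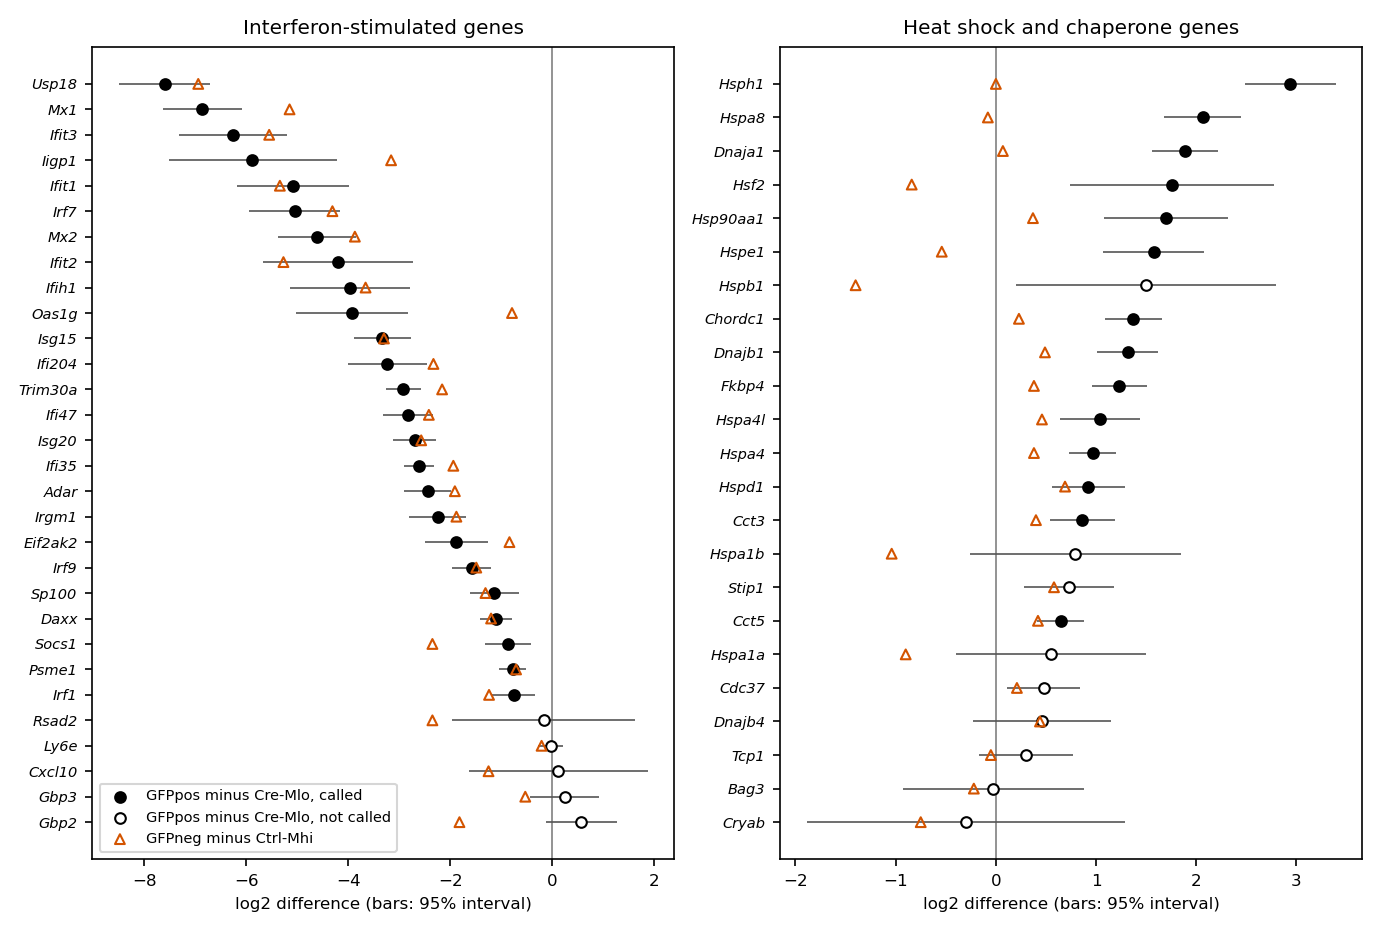
Log2 difference of GFPpos minus Cre-Mlo for each measured interferon-stimulated gene (left) and heat shock or chaperone gene (right), with the 95% interval as a bar, filled where called, and GFPneg minus Ctrl-Mhi as a triangle. The triangles follow the circles for most interferon-stimulated genes and lie mostly below them, nearer 0, for heat shock genes.

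Genes of receptor signalling differed in a few members. Of 25 measured, 6 were higher in GFPpos and 1 lower (4.31% and 3.05% of all genes), with a median of 0.28. Inpp5d, the inositol phosphatase SHIP that restrains receptor signals, gave 15270, 9203 and 7663 on GFPpos arrays, against 4315, 4062, 4508 and 4200 on Cre-Mlo arrays, without overlap (1.26, 95% interval 0.81 to 1.72, adjusted p = 0.0032). The kinase gene Btk gave 10603, 10908 and 11636 on GFPpos arrays, against 6609, 6596, 6274 and 7250 on Cre-Mlo arrays (0.73, 95% interval 0.46 to 0.99, adjusted p = 0.0034). The adaptor gene Lat2 was higher by 1.50 (adjusted p = 0.0086; 0.085 in a fit of the 2 groups alone) and Pik3cd, a catalytic subunit of phosphoinositide 3-kinase, by 0.76 (adjusted p = 0.024), and the call on Pik3cd was lost without GFPpos array 1 or 2 or Cre-Mlo array 1 or 4 (adjusted p 0.058 to 0.094). The inhibitory receptor gene Cd72 was lower (-0.63, adjusted p = 0.049), and that call was lost without GFPpos array 1 or 2 or any 1 Cre-Mlo array (adjusted p 0.082 to 0.16). Against the own control more of the list fell than rose. In GFPpos it was 9 against 3 (5.66% and 5.16% of all genes) and in Cre-Mlo 14 against 2 (4.3% and 4.71%).

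Many mature B cell and MHC class II genes were below the own control in both states, and few were called between the states. Of 20 mature B cell genes, 5 were lower in GFPpos than in GFPneg (5.66% of all genes) and 11 lower in Cre-Mlo than in Ctrl-Mhi (4.3%). Of the 20, 1 was higher and 1 lower in GFPpos than in Cre-Mlo (4.31% and 3.05% of all genes). Ms4a1, which encodes CD20, gave 793, 10651 and 9302 on GFPpos arrays, against 1301, 2560, 1570 and 840 on Cre-Mlo arrays. Array 1 lay below all of Cre-Mlo and the other 2 above all of it, so the difference of 1.57 (95% interval -0.00 to 3.13) was not called (adjusted p = 0.24), whereas without GFPpos array 1 it was 2.78 (adjusted p = 0.00056). Ptpn6, the phosphatase SHP-1, behaved alike, with 256, 1730 and 2410 on GFPpos arrays and 611, 1041, 661 and 600 on Cre-Mlo arrays. Its difference was 0.53 (adjusted p = 0.68), and 1.53 without GFPpos array 1 (adjusted p = 0.0066). Both genes fell against the own control, Ms4a1 by -3.62 in GFPpos and -5.33 in Cre-Mlo, and Ptpn6 by -3.53 in GFPpos and -4.10 in Cre-Mlo. The GFPpos calls were lost in a fit of GFPpos and GFPneg alone (adjusted p = 0.14 for Ms4a1 and 0.1 for Ptpn6). Neither difference of effects was called (1.71, adjusted p = 0.54, and 0.57, adjusted p = 0.83).

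Without that array the mature B cell list had 3 higher (Cd82, Lgals3 and Ms4a1) and 1 lower, and its median moved to 0.22. Spib, an Ets factor of the B lineage, was the lower one in both fits, with 17582, 24336 and 30286 on GFPpos arrays and 44389, 43746, 42205 and 49450 on Cre-Mlo arrays (-0.93, 95% interval -1.30 to -0.57, adjusted p = 0.0054; 0.059 in a fit of the 2 groups alone), and at -0.72 without GFPpos array 1 (adjusted p = 0.014). The higher one over all arrays was the adhesion gene Icam1 (0.61, adjusted p = 0.029), which was no longer called without any 1 GFPpos array or without Cre-Mlo array 1 or 4 (adjusted p 0.059 to 0.081). Of 14 class II genes 2 were lower (3.05% of all genes), with a median of -0.26. Without array 1 of GFPpos, Cd74 and H2-Ob were called higher beside them and the median was 0.19. H2-Eb1, a class II beta chain, gave 795, 2949 and 2484 on GFPpos arrays, against 7154, 3592, 3707 and 4951 on Cre-Mlo arrays (-1.37, 95% interval -2.31 to -0.44, adjusted p = 0.08, called at 0.048 without GFPpos array 2). Without GFPpos array 1 the difference was -0.78 (adjusted p = 0.24). Against the own control it differed by -3.93 in GFPpos and -2.58 in Cre-Mlo.

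The 2 called class II members were H2-Ea and Ifi30. H2-Ea, a class II alpha chain, gave 49, 33 and 90 on GFPpos arrays, against 5003, 4259, 5439 and 2668 on Cre-Mlo arrays (-6.31, 95% interval -8.43 to -4.20, adjusted p = 0.0020). The controls differed as much (-6.45, adjusted p = 0.0022), and neither effect was called. On the FxE arrays H2-Ea was called lower with herbimycin A, under all 18 alternatives too (-6.31 to -6.13, adjusted p up to 0.0033). The source of these gaps was not tested. Ifi30, a thiol reductase of the class II pathway that interferon raises, was lower (-1.23, adjusted p = 0.012; 0.1 in a fit of the 2 groups alone). Ciita, the master regulator of class II genes, was not called (0.45, 95% interval 0.03 to 0.87, adjusted p = 0.20). Against the own control 9 of the 14 class II genes were lower in GFPpos (median -1.71, 5.66% of all genes) and 10 in Cre-Mlo (median -1.75, 4.3% of all genes). In FxE HA 11 were lower (median -2.89, 1.67% of all genes).

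Among targets and pathway genes of NF-kB, 2 of 18 were higher and 4 lower in GFPpos (4.31% and 3.05% of all genes), with a median of -0.64. The higher ones were Icam1 and Traf6 and the lower ones Nfkb2, Nfkbia, Nfkbie and Tnfaip3. Without GFPpos array 1 there were 1 higher (Traf6) and 2 lower (Nfkb2 and Nfkbie), with a median of -0.39. Traf6, an adaptor of Toll-like and interleukin-1 receptors, stood out with 28400, 27452 and 28069 on GFPpos arrays, against 9669, 10861, 10518 and 10503 on Cre-Mlo arrays (1.43, 95% interval 1.04 to 1.82, adjusted p = 0.00043). The inhibitor gene Nfkbie was lower (-1.28, adjusted p = 0.0053). Nfkbia, another inhibitor, was lower by call (-0.90, adjusted p = 0.030), but not without GFPpos array 1 or any 1 Cre-Mlo array (adjusted p 0.052 to 0.072) nor with quantile normalization or median centring (adjusted p = 0.053 in each).

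In the other lists of B cell regulators single genes passed. Id3, an inhibitor of E proteins, was higher by 1.32 (95% interval 0.94 to 1.70, adjusted p = 0.00073), with 4928, 4837 and 4138 on GFPpos arrays and 2290, 2076, 1783 and 1377 on Cre-Mlo arrays. Bcl2l11, which encodes the death protein Bim, was higher by 0.94 (adjusted p = 0.0039). Cited2, a FoxO target, differed by -1.02 (adjusted p = 0.0022) and the adhesion gene Icam2 by -1.03 (adjusted p = 0.0083; 0.071 in a fit of the 2 groups alone), both lower. Xbp1, the plasma cell and stress factor, was lower (-0.79, adjusted p = 0.022) in a call that was lost without any 1 GFPpos array or without Cre-Mlo array 2, 3 or 4 (adjusted p 0.053 to 0.071). Egr1, an early gene of receptor signals, had overlapping groups (0.03, 95% interval -0.89 to 0.95, adjusted p = 0.98) and was lower than the own control in both states.

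None of the 31 measured proliferation genes was called by limma in either direction, with a median of -0.02 (0.57 without GFPpos array 1 and -0.36 without GFPpos array 2). Their summed signal was 24929 to 74056 on GFPpos arrays and 34594 to 69604 on Cre-Mlo arrays. The controls did differ, with 9 higher in GFPneg than in Ctrl-Mhi (3.37% of all genes) and 0 lower (median 1.33). In GFPpos 23 were lower than in GFPneg (5.66% of all genes, median -2.15), against 0 called in Cre-Mlo minus Ctrl-Mhi (median -0.75). The difference of these effects was called for 0 of the 31 (median -1.38). Pcna, the sliding clamp of replication, gave 3821, 7824 and 8190 on GFPpos arrays, against 4499, 4513, 3768 and 4957 on Cre-Mlo arrays, with overlap (0.50, adjusted p = 0.33). No gene was called in the lists of immediate early, G1, p53, glycolysis, cholesterol, proteasome and oxidative stress genes.

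No marker of another cell type was called except Car2, an erythroid marker that other cells also express. It gave 760, 540 and 747 on GFPpos arrays, against 1128, 1529, 1945 and 1477 on Cre-Mlo arrays (-1.15, adjusted p = 0.0090), 1 of 9 erythroid markers. Without GFPpos array 1, Car2 stayed called, the myeloid marker S100a8 was called higher and the NK cell marker Gzma lower. The summed signal of 12 T cell markers was 8186 to 9650 on GFPpos arrays and 11161 to 14788 on Cre-Mlo arrays, most of it from Cd2, which B cells make too. That of 17 myeloid markers was 4510 to 8105 on GFPpos arrays and 5672 to 7538 on Cre-Mlo arrays, and that of 7 NK cell markers 761 to 1538 on GFPpos arrays and 582 to 958 on Cre-Mlo arrays. Their part in the results was not tested.

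The largest rises outside these lists were in genes with low signals in Cre-Mlo. Acot7, an acyl-CoA thioesterase, gave 954, 819 and 704 on GFPpos arrays, against 72, 70, 37 and 56 on Cre-Mlo arrays (3.85, 95% interval 2.73 to 4.96, adjusted p = 0.00074). Ptpn22, a phosphatase of lymphocytes that restrains antigen receptor signals, gave 1194, 1123 and 613 on GFPpos arrays, against 72, 72, 136 and 67 on Cre-Mlo arrays (3.50, 95% interval 2.54 to 4.46, adjusted p = 0.00048). It was lower in Cre-Mlo than in Ctrl-Mhi (-2.78, adjusted p = 0.0013) and not called in GFPpos against GFPneg (-0.16, adjusted p = 0.90). The difference of these effects was not called. Tulp1 (3.27, adjusted p = 0.00079) and H2-M1 (3.10, adjusted p = 9.3e-05) differed between the controls by 4.47 each, and Sspn, a muscle membrane protein gene (3.53, adjusted p = 0.0033), by 2.70.

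Calls on the rest of the 10 were less firm. Rasd1 (3.62, adjusted p = 0.035) lost its call without any 1 GFPpos array or without Cre-Mlo array 2 or 4 (adjusted p 0.051 to 0.1), and S100a6 (3.30, adjusted p = 0.015) without GFPpos array 1 (adjusted p = 0.052). Prkch, a protein kinase C gene (3.12, adjusted p = 0.0019), was at 1.34 with signals raised to 100 (adjusted p = 0.065). Fam189b (2.88, adjusted p = 0.032) was at 1.21 in that setting (adjusted p = 0.09) and was also lost without any 1 GFPpos array or without Cre-Mlo array 1, 2 or 4 (adjusted p 0.066 to 0.1). The only one of the 10 largest falls outside interferon and class II genes was A530040E14Rik, with 292, 43 and 866 on GFPpos arrays and 4693, 6454, 6229 and 5634 on Cre-Mlo arrays (-4.69, adjusted p = 0.0023). It was also lower in FxE HA than in FxE Ctrl (-2.53, adjusted p = 0.00039).

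Part of the calls between the states were also made between their controls. The differences use different arrays, but both sets of calls rest on the spread fitted over all 14 arrays and are not independent. Of the 390 probe sets higher in GFPpos than in Cre-Mlo, 83 were called higher in GFPneg than in Ctrl-Mhi, 21.3% of the 390 and 28.2% of the 294 called there (2.95% of all probe sets). Of the 317 lower, 140 were called lower between the controls, 44.2% of the 317 and 46.7% of the 300 (3.01% of all probe sets). In neither direction was a probe set called the opposite way, and the sign was shared by 344 (88.2%) of the higher and 286 (90.2%) of the lower ones. Of the 14 heat shock genes higher in GFPpos, Cct5 and Hspd1 were also called higher between the controls.

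**Figure D4:**
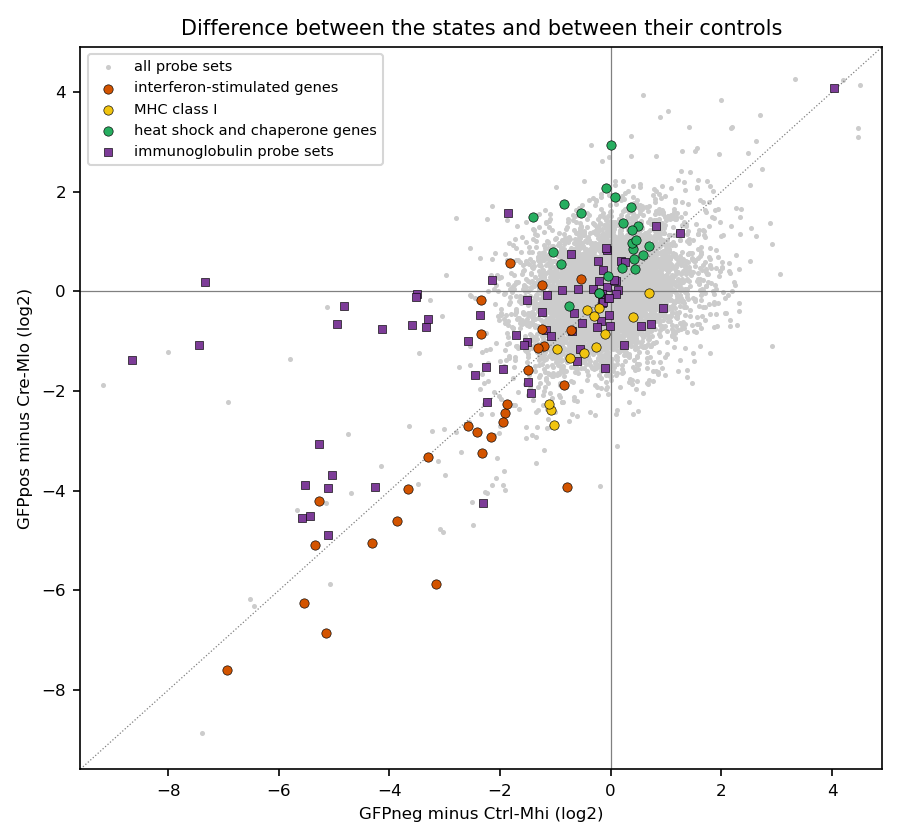
Log2 difference of GFPpos minus Cre-Mlo (vertical) against GFPneg minus Ctrl-Mhi (horizontal) for 9977 probe sets, with gene groups in colour and a line where both are equal. Interferon-stimulated genes lie near the line far below 0 on both axes, and most heat shock genes lie above 0 on the vertical axis and nearer 0 on the horizontal.

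Measured each against its own control, the 2 states shared many changes. These effects use different arrays, but their calls share the spread of the joint fit. Among 7390 genes other than immunoglobulins, 168 were higher in both, 44.2% of the 380 that rose in GFPpos and 48.3% of the 348 that rose in Cre-Mlo. A further 124 were lower in both, 29.5% of the 420 that fell in GFPpos and 39.6% of the 313 that fell in Cre-Mlo. Only Mrps7, a mitochondrial ribosomal protein gene, was called in opposite directions, and it is named after its values were seen. The largest shared rises included Rag1, Dntt and Jun, a subunit of the AP-1 factor, which was 3.33 above GFPneg in GFPpos (adjusted p = 0.0081) and 3.84 above Ctrl-Mhi in Cre-Mlo (adjusted p = 0.0013). Prm1, a protamine gene next to Socs1, was 5.16 above GFPneg and 2.93 above Ctrl-Mhi. The largest shared falls included Ms4a1, Ptpn6 and H2-Eb1. In a fit of GFPpos and GFPneg alone, the GFPpos effects of Jun (adjusted p = 0.063), Ms4a1 (0.14) and Ptpn6 (0.1) were not called. Irf4, a factor of light chain recombination and plasma cells, was higher by 2.03 in GFPpos and 1.58 in Cre-Mlo and not called between the states (-0.15, 95% interval -0.48 to 0.19, adjusted p = 0.66).

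The effects themselves differed by call in 38 of 9977 probe sets (0.381%), 26 with a positive difference (effect in GFPpos minus effect in Cre-Mlo) and 12 with a negative one, while 1220 had an unadjusted p under 0.05. The median standard error of such a difference was 0.41, against 0.29 for the direct comparison, and smaller gaps could be missed. Of the 22 genes called (0.297%), those with the largest values besides the recombinase, heat shock and class I genes above were Cox6a2, a subunit of cytochrome c oxidase (3.08, adjusted p = 0.042), F13b (2.47, adjusted p = 0.038), the Polycomb methyltransferase gene Ezh2 (-1.81, adjusted p = 0.039), Psip1 (-1.80, adjusted p = 0.038) and Krtap3-1 (-1.49, adjusted p = 0.029). Ezh2 was higher in Cre-Mlo than in Ctrl-Mhi (2.16, adjusted p = 0.00013) and not called in GFPpos against GFPneg (0.35, adjusted p = 0.46). All 5 calls were lost when single arrays were left out, with adjusted p up to 0.091 for Cox6a2, 0.096 for F13b, 0.095 for Ezh2, 0.096 for Psip1 and 0.082 for Krtap3-1, and F13b was at 0.30 with signals raised to 100 (adjusted p = 0.75). Those on Rag1, Rag2, Hsph1, Hspa8, Dnaja1 and Tap1 held under each alternative and without any single array.

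**Figure D5:**
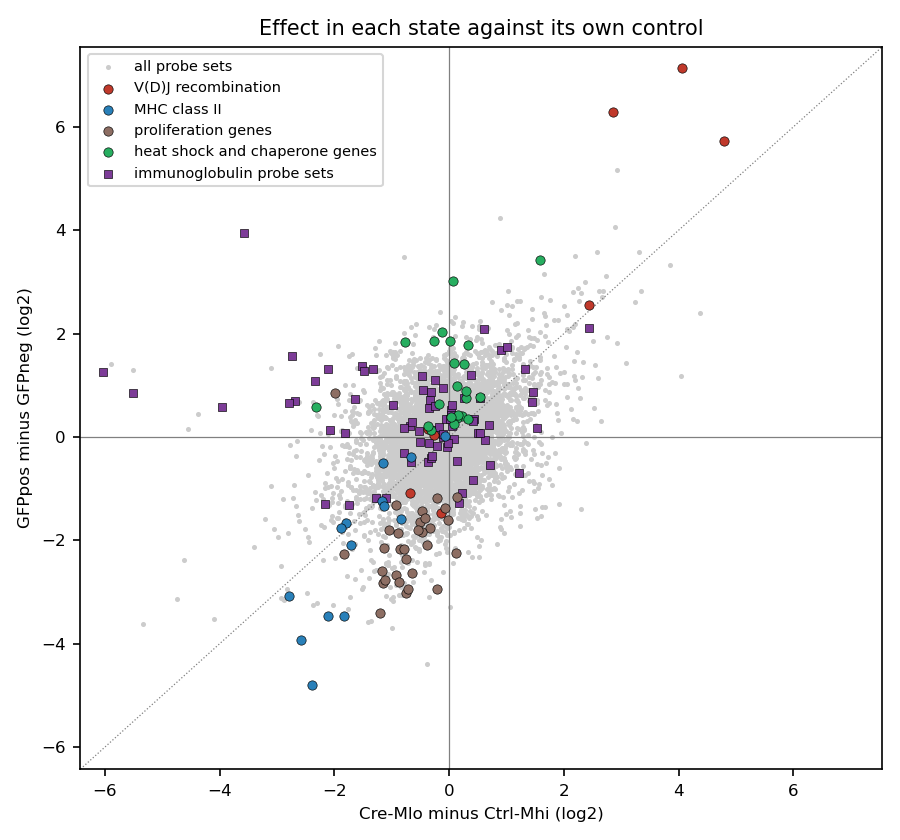
Log2 effect in GFPpos against GFPneg (vertical) and in Cre-Mlo against Ctrl-Mhi (horizontal) for 9977 probe sets, with gene groups in colour and a line where both are equal. Rag1 and Dntt lie at the upper right, most class II genes at the lower left, and Hsph1 and Hspa8 high on the vertical axis and near 0 on the horizontal.

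Immunoglobulin probe sets were kept apart, since the 2 mouse lines carry different receptors and many of these probe sets read several related V genes. Of 76, 4 were higher in GFPpos than in Cre-Mlo and 16 lower (3.91% and 3.18% of all probe sets, median -0.57). Between the controls, 2 were higher and 27 lower in GFPneg than in Ctrl-Mhi (2.95% and 3.01% of all probe sets). Igkv4-68 averaged 1505.7 in GFPpos and 35341.8 in Cre-Mlo (-4.88, adjusted p = 2.8e-05), and the controls differed alike (-5.11). The rise of Ighv3-6 (4.07) was also there between the controls (4.04). Among these 4 groups, one heavy chain probe set for Ighv1-54 was low except in Ctrl-Mhi. It averaged 553.2 in GFPpos and 1121.5 in Cre-Mlo, with 304.5 in GFPneg and 51543.8 in Ctrl-Mhi, so that it differed from the own control by 0.85 in GFPpos and -5.52 in Cre-Mlo, a difference of effects of 6.37 (adjusted p = 1.4e-05). A probe set for Ighm, the constant region of IgM, averaged 124820.4 in GFPpos and 68243.4 in Cre-Mlo (0.88, adjusted p = 0.0012). Some other Ighm probe sets, with far lower signals, were not called, such as those at -0.71 (adjusted p = 0.29) and 0.09 (adjusted p = 0.96). The Cre-Mlo cells had been sorted for low IgM, and the part of this gate was not tested.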

How the data were processed

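RNA of sorted B lineage cells was hybridized to U74Av2 oligonucleotide arrays. Per the labels and methods, the authors computed signal intensities with Affymetrix software and scaled each array to a target of 1500, and the deposited intensity table of 37 arrays was used as given. The methods set signals with a poor detection p to 20, which could not be repeated from this table, so every intensity under 20 was raised to 20. Tables of other array types were not used here. Of 9977 probe sets, 8724 matched 1 gene symbol, 346 several and 907 none in the platform annotation, and each of 7417 genes was read from its probe set with the highest mean.

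The log2 values of 14 arrays were fitted by group with limma 3.58.1 in R 4.3.3, with 10 residual and 1.81 prior degrees of freedom, two-sided tests and Benjamini-Hochberg adjustment over 9977 probe sets, and 10 FxE arrays were fitted apart. The number of arrays limits the precision. The fitting code was tested on simulated data. Promoters were read from RefSeq (GRCm38.p6).

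Genes were named by rule: the 10 largest called differences of each sign without overlap, up to 4 members per list with the smallest adjusted p, a fixed set of 25 genes, the 6 largest shared rises and falls against the own controls, and the 5 largest called differences of effects of each sign. The gene lists and members were chosen with earlier results of these data known, so no list is independent evidence. Same-numbered arrays did not deviate together (correlations of deviations from the group means -0.11 to 0.05 over 13 pairs, and -0.08 to 0.15 over 4 FxE pairs), so the numbers were not taken to pair samples. Alternatives were other floors, quantile normalization, median centring, a filter on mean signal, other variance priors, the replicate number as a block, other sets of arrays and the methods' t-test.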

Additional observations from a re-analysis of the deposited data

Results flagged for a closer look

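Of 192 groups of 4 to 6 arrays looked at over the named genes, 10 (5.21%) held 1 array apart from the rest, where chance alone gives about 1 in 20. GFPpos and GFPneg, with 3 arrays each, were not looked at in this way, so the count does not cover GFPpos array 1. In Cre-Mlo, Usp18 was low on array 1 (5280.6, others 9347.2 to 9568.4), Iigp1 was high on array 3 (5191.4, others 2369.7 to 2818.9), Ptpn6 was high on array 2 (1041.4, others 600.1 to 661.0) and Egr1 was low on array 3 (138.7, others 551.9 to 601.3). Array 3 of Cre-Mlo was also high for Ptpn22 (136.0, others 66.6 to 72.3) and F13b (173.2, others 77.4 to 92.1). In Ctrl-Mhi, array 1 was low for Ifi27l2a (20426.0, others 25724.4 to 26282.7) and high for Spib (76783.1, others 68856.6 to 70130.9) and Fam189b (338.1, others 26.1 to 44.2). In FxE HA, Chordc1 was high on array 6 (9212.1, others 2730.5 to 4347.9).

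The effect against the own control differed between the states by limma's test of the difference in 16 of the probe sets described. The difference, the effect in GFPpos minus that in Cre-Mlo, was positive for Rag1 (3.09, from 7.14 in GFPpos and 4.06 in Cre-Mlo), Rag2 (3.42, from 6.28 in GFPpos and 2.86 in Cre-Mlo), Hsph1 (2.94, from 3.01 in GFPpos and 0.07 in Cre-Mlo) and Hspa8 (2.15, from 2.03 in GFPpos and -0.12 in Cre-Mlo). It was also positive for Dnaja1 (1.82, from 1.85 in GFPpos and 0.02 in Cre-Mlo), Chordc1 (1.15, from 1.41 in GFPpos and 0.26 in Cre-Mlo), Hspe1 (2.12, from 1.86 in GFPpos and -0.26 in Cre-Mlo), Cox6a2 (3.08, from 1.85 in GFPpos and -1.23 in Cre-Mlo) and F13b (2.47, from 2.12 in GFPpos and -0.34 in Cre-Mlo). It was negative for Tap1 (-1.65, from -1.85 in GFPpos and -0.20 in Cre-Mlo), H2-Q5 (-1.73, from -1.04 in GFPpos and 0.69 in Cre-Mlo), Ezh2 (-1.81, from 0.35 in GFPpos and 2.16 in Cre-Mlo), Psip1 (-1.80, from -1.59 in GFPpos and 0.20 in Cre-Mlo) and Krtap3-1 (-1.49, from -1.66 in GFPpos and -0.17 in Cre-Mlo). Among immunoglobulins it was positive for the probe sets described of Ighv1-54 (6.37, from 0.85 in GFPpos and -5.52 in Cre-Mlo) and Ighm (0.95, from 0.16 in GFPpos and -0.79 in Cre-Mlo).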

How the results depend on the processing

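Of 82 genes followed in GFPpos minus Cre-Mlo, 60 were called, 42 of them under every alternative run on them (15 or 16 each, the methods' t-test not counted; Acot7, Sspn and H2-M1 fell under the mean signal filter and were not tested there), and no called gene changed sign. The 707 calls became 401 (190 higher, 211 lower) in a fit of the 2 groups alone, 457 (218 higher, 239 lower) with all 37 arrays, and 211 (56 higher, 155 lower) by the methods' t-test at its own thresholds or 81 (31 higher, 50 lower) after Benjamini-Hochberg adjustment. Median centring gave 726 (472 higher, 254 lower), where the fit reported had 390 higher and 317 lower. Leaving out 1 array gave 498 to 617. The 984 calls of GFPpos minus GFPneg became 258 in a fit of those groups alone, 183 by the methods' t-test and 1 after adjustment, and 570 to 910 without 1 array (570 without GFPneg array 1, 597 without GFPneg array 2, 619 without GFPpos array 1). Median centring turned its 464 higher and 520 lower into 582 higher and 367 lower. The 853 calls of Cre-Mlo minus Ctrl-Mhi became 285 by the methods' t-test and 385 after adjustment, and 611 to 746 without 1 array. The 38 called differences of effects became 109 with a floor of 100, 167 with a mean signal of at least 500 (5025 probe sets tested) and 145 with a trended, robust prior. They were 18 to 56 without 1 array, with 23 without Cre-Mlo array 1 or 2, 18 without Cre-Mlo array 4, 25 without Ctrl-Mhi array 3 or 4 and 24 without GFPneg array 2. Of GFPneg minus Ctrl-Mhi 594 became 918 with the mean signal filter and 321 to 592 without 1 array (321, 376 and 356 without GFPneg array 1, 2 and 3, and 383 without Ctrl-Mhi array 4). Of FxE HA minus FxE Ctrl 245 became 412 with that filter, 383 with the trended prior and 143 to 244 without 1 array (155, 143, 152 and 146 without FxE Ctrl array 1, 2, 3 and 4). With culture time as a term, an alternative added after seeing the data, it was 336 (118 higher, 218 lower), and the calls on Mx1, Tap1, Hsph1 and A530040E14Rik were kept.

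With the replicate number as a block, which was not taken to pair these samples, the calls were 461 (235 higher, 226 lower) for GFPpos minus Cre-Mlo, 24 for the difference of effects, 335 for GFPneg minus Ctrl-Mhi and 45 for FxE HA minus FxE Ctrl, whose calls on Mx1 (adjusted p = 0.07), Tap1 (0.15) and A530040E14Rik (0.065) were lost. Signs turned in uncalled genes. Xrcc6 went to 0.08 with median centring, 0.03 and 0.01 without Cre-Mlo array 2 and 4, 0.09 and 0.12 without GFPpos array 2 and 3, and 0.02 in the methods' t-test (-0.27 to 0.12 without 1 array), and Myb to 0.03 with median centring and 0.00 without GFPpos array 2. Ptpn6 went to -0.09 without GFPpos array 3 (up to 1.53 without 1 array), and Egr1 to -0.48 without Cre-Mlo array 3, -0.19 without GFPpos array 2 and -0.14 in the methods' t-test (up to 0.22 without 1 array). Hsph1 in Cre-Mlo minus Ctrl-Mhi went to -0.02 without Cre-Mlo array 4 and -0.12 without Ctrl-Mhi array 3 (up to 0.16 without 1 array). The causes were not tested. In an alternative added after seeing the data, the lists were counted again under each setting other than the methods' t-test: 23 to 25 interferon-stimulated genes and 8 to 9 class I genes were lower, and 10 to 15 heat shock genes higher. Other lists moved more: 2 to 8 higher and 0 to 2 lower for receptor signalling, 0 to 4 and 0 to 1 for pro-B and pre-B cell genes, 1 to 2 and 1 to 5 for NF-kB targets and pathway genes, 0 to 2 and 1 to 4 for class II, 0 to 3 and 0 to 1 for mature B cell genes, and 0 to 2 and 0 for recombination genes.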
